A study of Homo sapiens with 6 samples.

Results

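Aldo-keto reductases are enzymes that use NADPH to reduce aldehydes and ketones to alcohols. The members described here are AKR1A1, AKR1B1, AKR1B10, AKR1B15, AKR1C1, AKR1C2, AKR1C3 and AKR7A2, 8 of the 60676 genes in the deposited expression table, taken by symbol. They were chosen by their family and with their read counts in HC278 and DMSO libraries already known, so the HC278 comparison of these 8 genes is a description: no member has a p-value here, and counts of members past the threshold support nothing.

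RNA was sequenced from NCI-H226, an established human line that the labels call mesothelioma of the pleura. HC278 cells received 500 nM of the compound for 24 h (3 libraries, replicates 1, 2 and 6), and DMSO cells received the solvent (3 libraries, replicates 1, 2 and 3). All cells grew in DMEM with 10% serum, and the labels give no other agent or genotype. By its title the study concerns a compound that degrades TEAD, the DNA-binding partner of YAP and TAZ, and HC278 also appears as HC31278A and HC-31278. All 6 libraries come from 1 line. Whether replicates are separate cultures is not said, and p-values then cover only the spread among these libraries, which may be technical.

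AKR1C enzymes reduce steroid hormones and prostaglandins as well as aldehydes from lipid peroxidation. AKR1B1 is aldose reductase, which turns glucose into sorbitol, and AKR1B10 is a relative that reduces retinaldehyde. In human cells AKR1B10 and the AKR1C genes are well-known targets of NRF2 (NFE2L2), the transcription factor of the oxidative stress response, and NRF2-active lung cancers often express them strongly.

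Total gene counts lay between 30486316 and 33181814 in all 6 libraries. HC278 replicate 6 stood apart: its chi-square per degree of freedom against HC278 replicates 1 and 2 was 313 and 197, and the other pairs within a group had values from 4.02 to 47.8. Of 9 mesothelial markers, all 9 were tested, and their summed level was 2799 to 5526 CPM (counts per 1000000 of the scaled library size) with HC278 and 2531 to 3609 CPM with DMSO. Most of that sum came from the keratins KRT18 and KRT19 in every library. UPK3B, CALB2 and ITLN1 rose and 0 fell, beside 5.40% and 5.38% of all tested genes. Of the 6 that did not pass, KRT19 (log2 0.92), MSLN (0.63) and KRT18 (0.05) had positive values, and PDPN (-0.29), WT1 (-0.27) and BNC1 (-0.11) negative ones. With HC278 replicate 6 left out, 5 markers were higher and 2 lower, in a fit that called 19.8% of all tested genes higher and 20.7% lower. Among 9 squamous and lung markers the sum was 0.631 to 0.697 CPM with HC278 and 0.0626 to 0.121 CPM with DMSO, with KRT6A at 0 in all libraries. Of them only NAPSA was tested and rose (log2 2.03, adjusted p = 0.0295), and NR1H2 overlaps it on the opposite strand. NAPSA passed the filter on low counts only through the HC278 libraries (36 counts, against 9 with DMSO), so only a rise could be called. The 7 immune and endothelial markers summed to 64.1 to 78.8 CPM with HC278 and 38.5 to 39.3 CPM with DMSO, nearly all of it CD68, which rose, as did CD14. CD3E had 0 counts. The 5 fibroblast markers summed to 2.88 to 4.24 CPM with HC278 and 3.99 to 4.88 CPM with DMSO, with LUM at 0. The part of these markers in the results below was not tested.

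The AKR1C genes lie side by side on chromosome 10 and are near copies of each other, which limits how well reads can be told apart. The coding sequences of AKR1C1 and AKR1C2 were 98.0% identical, with 19 mismatches in 972 bases. AKR1C3 was 91.5% identical to AKR1C1 and 91.0% to AKR1C2. The first 120 coding bases of each show this, from the GENCODE release 29 transcript with the longest coding part, and capitals mark the 19 positions at which the 3 genes are not all the same.
AKR1C1: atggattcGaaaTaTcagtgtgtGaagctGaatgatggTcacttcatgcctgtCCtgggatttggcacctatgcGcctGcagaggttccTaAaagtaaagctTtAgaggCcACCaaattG
AKR1C2: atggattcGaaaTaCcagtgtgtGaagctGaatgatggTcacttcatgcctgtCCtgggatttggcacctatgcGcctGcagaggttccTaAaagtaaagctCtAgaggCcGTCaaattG
AKR1C3: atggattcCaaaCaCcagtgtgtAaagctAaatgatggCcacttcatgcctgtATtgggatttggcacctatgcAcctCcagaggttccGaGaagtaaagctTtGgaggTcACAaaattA

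Windows of 50 bases were used to ask how much of each transcript another gene repeats exactly. The shared part was 52.2% of the windows for AKR1C2, 28.7% for AKR1C1 and 12.1% for AKR1C3, almost all of it with the other AKR1C genes. In number these were 1934, 1909 and 212 windows, in transcripts of 3756, 6705 and 1807 bases. The percentages thus depend on the length of the transcript picked, and AKR1C1 and AKR1C2 shared nearly the same number of windows. With windows of 100 bases the shared parts were 32.9%, 17.4% and 4.98%. AKR1B10 shared 17.4% of its 50-base windows, mainly with AKR1B15 and a pseudogene, and 2.01% of its 100-base windows. AKR7A2 shared 8.0% and AKR1B1 4.78% at 50 bases, while AKR1A1 shared 0. How the deposited counts treat reads that fit several genes is not given in the sources used here, so single AKR1C1 and AKR1C2 values are uncertain and their sum with AKR1C3 is given too.

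Levels between genes were compared in the authors' TPM, which divides by exon length. With DMSO, AKR1B1 was by far the most abundant member at 453 ± 20.6 TPM (SD, n = 3), rank 286 among all genes. AKR7A2, which reduces aflatoxin dialdehyde and succinic semialdehyde, had 113 ± 6.97 TPM. AKR1A1, the general aldehyde reductase, had 104 ± 7.24 TPM, and its libraries (98.5 to 112 TPM) overlapped those of AKR7A2 (106 to 119 TPM). AKR1C3 followed with 18.0 ± 0.505 TPM, AKR1C2 with 2.71 ± 0.164 TPM and AKR1C1 with 1.65 ± 0.0931 TPM. AKR1B10 had 0.399 ± 0.125 TPM and AKR1B15 0.0779 ± 0.0444 TPM. Apart from AKR7A2 and AKR1A1, no neighbours in this order overlapped between libraries. The exon length of the gene model was 8765 bases for AKR1C1, 6461 for AKR1C2 and 4532 for AKR1C3, against a coding length of 972 for each. The size of the gaps within AKR1C thus depends on the gene models used. The order was the same without division by length, with DMSO means of 22.0 CPM for AKR1C3, 5.46 for AKR1C2 and 4.52 for AKR1C1.

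AKR1C3, AKR1C1, AKR1C2 and AKR1B10 were higher with HC278 in every library, AKR1B1 had a higher mean with HC278 but separate groups on the TPM scale only, and AKR1A1 and AKR7A2 differed little. In the fit over all genes 4 of the 8 members were called higher (adjusted p under 0.05) and 0 lower, beside 5.40% of the 15510 tested genes called higher and 10.8% called in either direction. AKR1B15 was too low to be tested. The number of calls changed with the libraries used, over all genes as well as among members. Without DMSO replicate 1, 2 or 3 or without HC278 replicate 2, 0 members were called. Those fits called 0.4%, 0.0%, 0.615% and 0.693% of all tested genes higher. Without HC278 replicate 1, 3 members were called and AKR1C1 was lost, beside 2.52% of all tested genes called higher. Leaving out HC278 replicate 6 gave 5, AKR1B1 being the addition, in a fit that called 19.8% of all tested genes higher and 20.7% lower.

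**Figure D1:**
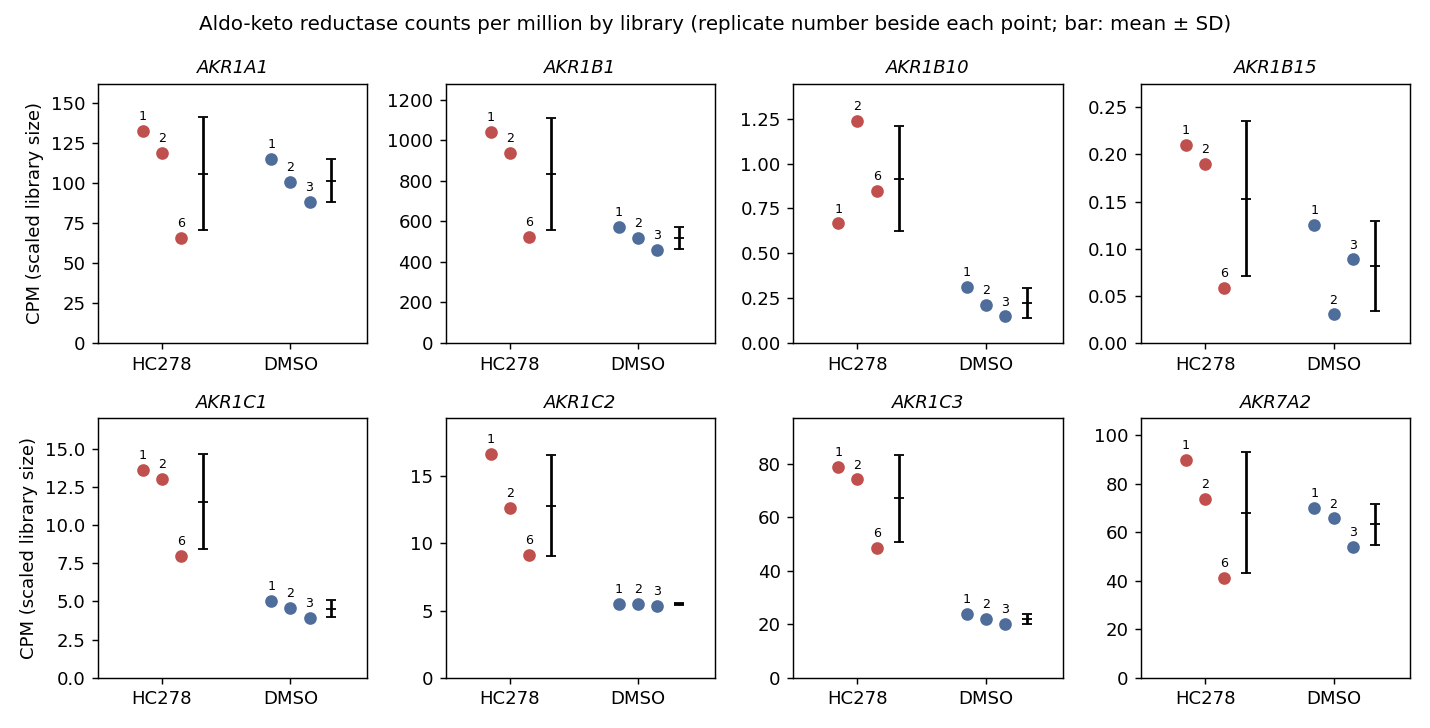
Counts per 1000000 of the scaled library size for the 8 aldo-keto reductases, 1 panel each, with HC278 libraries in red on the left and DMSO libraries in blue on the right, replicate numbers beside the points and mean ± SD as a bar. AKR1B10, AKR1C1, AKR1C2 and AKR1C3 have no overlap between groups, and HC278 replicate 6 is the lowest HC278 library in every panel except AKR1B10.

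AKR1C3 forms active androgens and prostaglandin F. Its level was 78.7, 74.1 and 48.5 CPM in HC278 libraries 1, 2 and 6, compared with 23.8, 21.9 and 20.2 CPM in DMSO libraries 1, 2 and 3. Every HC278 library was above every DMSO library, and HC278 replicate 6 was the lowest of its group. The means were 67.1 ± 16.3 and 22.0 ± 1.76 CPM (SD, n = 3 each), a log2 fold change of 1.61 (SE 0.21). Without HC278 replicate 6 it was 1.80 (SE 0.10). In TPM the 3 HC278 libraries lay closer together, at 50.5, 53.5 and 49.5 TPM, against 18.4, 17.4 and 18.0 TPM with DMSO, so AKR1C3 was 2.85-fold higher on that scale. AKR1C3 (ENSG00000196139) lies at 5035354 to 5107686 on the plus strand of chromosome 10 (hg38).

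AKR1C1 inactivates progesterone by reduction. Its level was 13.6, 13.0 and 7.98 CPM in HC278 libraries, compared with 5.04, 4.59 and 3.93 CPM in DMSO libraries. The groups did not overlap, and the log2 fold change was 1.35 (SE 0.24). In TPM the HC278 libraries had 3.90, 4.20 and 3.63 TPM, against 1.75, 1.63 and 1.56 TPM with DMSO. AKR1C1 (ENSG00000187134) lies at 4963253 to 4983283 on the plus strand of chromosome 10.

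AKR1C2 reduces dihydrotestosterone to a weak androgen. It had 16.7, 12.6 and 9.15 CPM with HC278 and 5.51, 5.50 and 5.38 CPM with DMSO. The DMSO libraries were almost level and all HC278 libraries were above them, with a log2 fold change of 1.23 (SE 0.23). AKR1C2 (ENSG00000151632) lies at 4987400 to 5018031 on the minus strand, between the other members of the cluster.

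Summed to 1 value, which takes away any exchange of reads among the 3 genes, AKR1C1, AKR1C2 and AKR1C3 had 109, 99.8 and 65.6 CPM with HC278 and 34.3, 32.0 and 29.5 CPM with DMSO (log2 1.52, SE 0.21). The groups did not overlap here either. AKR1C3 held 72.2%, 74.3% and 73.9% of these counts with HC278, against 69.3%, 68.5% and 68.5% with DMSO. The share of AKR1C2 was 15.3%, 12.7% and 13.9% with HC278, against 16.1%, 17.2% and 18.2% with DMSO, and that of AKR1C1 was 12.5%, 13.1% and 12.2%, against 14.7%, 14.4% and 13.3%. Thus AKR1C3 made up most of the AKR1C reads in all 6 libraries.

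The promoter windows of the AKR1C genes are shown because the 3 genes lay in 1 cluster and were all higher with HC278. The sequences run from 250 bases before to 50 after a start site in RefSeq, build GRCh38.p14, and such windows were on hand for 6 of the 8 members, not for AKR1B10 and AKR1B15. Capitals mark matches to the motifs searched on both strands.
AKR1C1, chr10:4963165-4963464, plus strand: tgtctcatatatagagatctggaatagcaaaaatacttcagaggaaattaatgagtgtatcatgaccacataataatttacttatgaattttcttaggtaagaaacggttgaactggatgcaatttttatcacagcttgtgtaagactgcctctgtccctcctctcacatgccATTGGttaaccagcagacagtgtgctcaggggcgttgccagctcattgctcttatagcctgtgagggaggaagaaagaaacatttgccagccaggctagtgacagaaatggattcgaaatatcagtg
AKR1C2, chr10:5003808-5004107, minus strand: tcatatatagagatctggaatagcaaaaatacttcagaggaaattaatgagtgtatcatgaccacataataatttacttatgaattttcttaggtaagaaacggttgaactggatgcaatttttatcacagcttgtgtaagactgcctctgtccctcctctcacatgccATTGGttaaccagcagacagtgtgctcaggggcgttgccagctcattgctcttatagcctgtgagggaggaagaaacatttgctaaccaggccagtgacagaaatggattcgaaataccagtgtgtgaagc
AKR1C3, chr10:5094164-5094463, plus strand: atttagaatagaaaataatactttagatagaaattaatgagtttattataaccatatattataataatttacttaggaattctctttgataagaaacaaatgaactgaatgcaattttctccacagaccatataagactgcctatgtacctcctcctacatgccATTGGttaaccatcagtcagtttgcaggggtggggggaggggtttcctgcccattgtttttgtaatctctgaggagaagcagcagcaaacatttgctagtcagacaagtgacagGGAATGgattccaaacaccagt

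The AKR1C1 and AKR1C2 windows were 93.5% identical when aligned, and the AKR1C3 window shown was 71.0% and 69.5% identical to them. The AKR1C3 window at the other start site (chr10:5048531-5048830) was 72.8% identical to that of AKR1C1. All 4 held 1 CCAAT box (CCAAT, here read from the other strand as ATTGG), which 34.6% of the 35116 promoters in the table hold. The antioxidant response element core TGACNNNGC, present in 13.3% of promoters, was in none of the 4 windows, nor were the AP-1 site TGANTCA (7.71%) and the AHR core GCGTG (36.5%). The TEAD motif GGAATG, found in 14.0% of promoters, occurred once, in the AKR1C3 window shown, after the start site. Of the other members, AKR7A2 held 3 matches to TGACNNNGC, and AKR1A1 and AKR1B1 held 0. Enhancers and bases outside these windows were not searched.

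AKR1B10 stood at the edge of detection. Its counts were 19, 39 and 29 in HC278 replicates 1, 2 and 6, against 10, 7 and 5 in DMSO replicates 1, 2 and 3. That is 0.666, 1.24 and 0.848 CPM with HC278 and 0.313, 0.211 and 0.148 CPM with DMSO, with no overlap. The log2 fold change was 2.02 (SE 0.39). Pooled per group, the counts were 87 and 22, a ratio of 4.15 with an exact 95% interval of 2.57 to 6.96 that covers counting error only. The interval leaves out the spread between libraries, and the counts were known beforehand, so it is a description and no test. AKR1B10 passed the filter on low counts only through its HC278 libraries, which fixed the direction of its call. AKR1B10 (ENSG00000198074, chromosome 7, 134527567 to 134541412, plus strand) was the member in which HC278 replicate 1, not replicate 6, was the lowest of its group.

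AKR1B15, the close relative of AKR1B10 next to it on chromosome 7 (134549110 to 134579875, plus strand), had 6, 6 and 2 counts with HC278 and 4, 1 and 3 counts with DMSO. The pooled counts were 14 and 8, a ratio of 1.84 with an exact 95% interval of 0.719 to 5.05. The interval spans no difference, covers counting error only and is likewise no test. At this depth the counts do not settle whether AKR1B15 differed. AKR1B10 and AKR1B15 summed to 1 value had a log2 fold change of 1.80 (SE 0.36).

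AKR1B1 begins the polyol pathway, and its call depended on 1 library. Its level was 1043, 939 and 523 CPM in HC278 libraries 1, 2 and 6, compared with 573, 519 and 461 CPM in DMSO libraries, so that HC278 replicate 6 fell below DMSO replicate 1. The means were 835 ± 275 and 518 ± 56.3 CPM (log2 0.69, SE 0.27), and AKR1B1 was not among the called genes. Without HC278 replicate 6 it was (log2 0.93, SE 0.12). In TPM it had 716, 726 and 571 TPM with HC278 and 476, 443 and 439 TPM with DMSO, with no overlap, a 1.48-fold difference. AKR1B1 (ENSG00000085662) lies on chromosome 7 at 134442356 to 134459284 on the minus strand.

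AKR1A1 had 132, 119 and 65.7 CPM with HC278 and 115, 101 and 88.3 CPM with DMSO (log2 0.06, SE 0.27). The HC278 libraries spanned all DMSO libraries. AKR7A2 had 89.7, 73.6 and 41.1 CPM with HC278 and 70.0, 65.7 and 54.0 CPM with DMSO (log2 0.11, SE 0.29), with the same arrangement. Neither was called with all libraries, and both turned negative without HC278 replicate 1, at -0.14 each. AKR1A1 also did so without DMSO replicate 3 or HC278 replicate 2 (-0.04 each), and AKR7A2 with the length trend taken out (-0.06). Without HC278 replicate 6 they were at 0.31 (SE 0.13) and 0.37 (SE 0.14), still not called. Both were called higher only with the replicate number as a block, in a fit that called 25.5% of all tested genes higher. AKR1A1 (ENSG00000117448) spans 45550543 to 45570049 of chromosome 1 (plus strand), and AKR7A2 (ENSG00000053371) spans 19303965 to 19312146 of the same chromosome (minus strand).

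**Figure D2:**
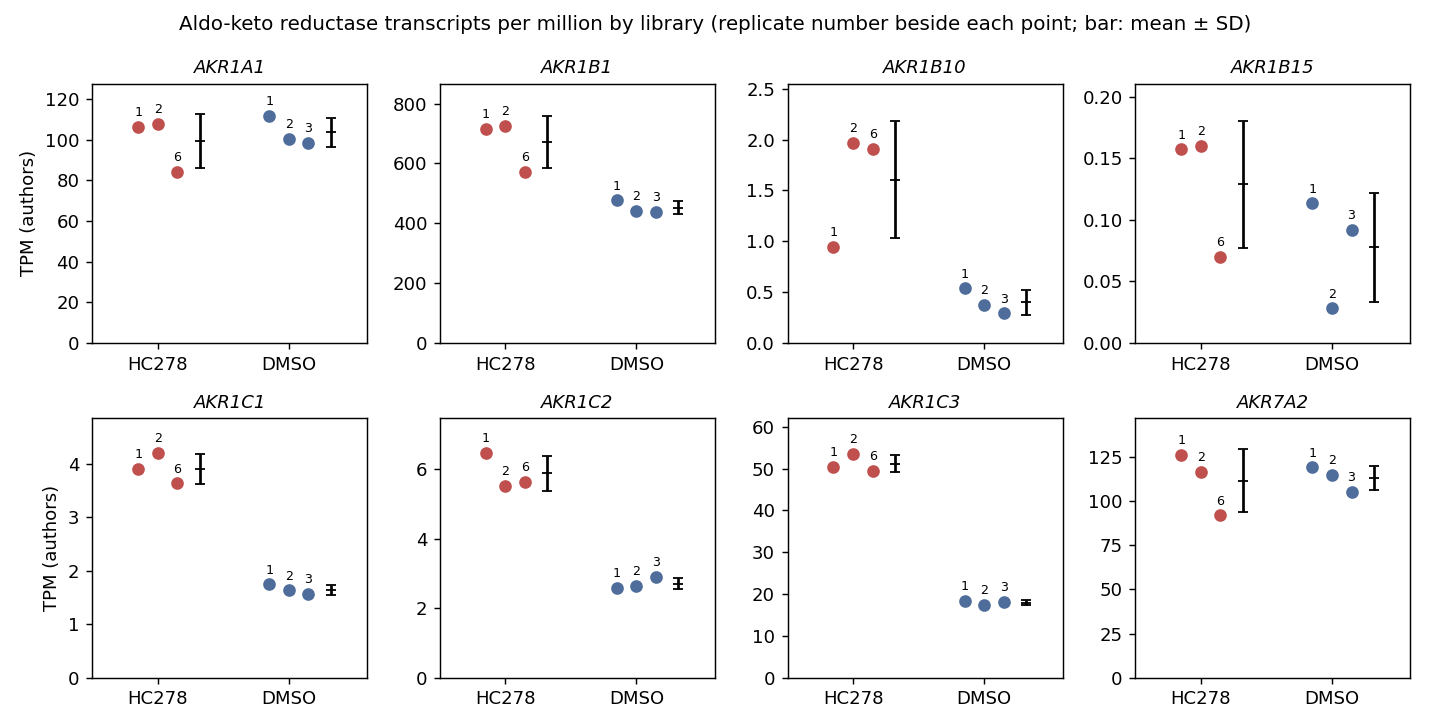
TPM as the authors deposited them for the 8 members, 1 panel each, HC278 libraries in red on the left and DMSO libraries in blue on the right, with replicate numbers and mean ± SD. AKR1B1, AKR1B10, AKR1C1, AKR1C2 and AKR1C3 have no overlap between groups, and AKR1A1, AKR7A2 and AKR1B15 overlap.

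Counted over both scales, 4 members had all HC278 libraries above all DMSO libraries in CPM, beside 17.0% of tested genes, and 5 in TPM, beside 14.6%. The 8 members together had 1010, 1016 and 808 TPM in HC278 replicates 1, 2 and 6, against 731, 680 and 666 TPM with DMSO. AKR1B1 was 70.9%, 71.5% and 70.7% of that sum with HC278 and 65.2%, 65.1% and 65.9% with DMSO. The part of AKR1C3 was 4.996%, 5.27% and 6.13% with HC278, against 2.52%, 2.56% and 2.71% with DMSO. The parts of AKR1A1 (10.4% to 10.6% against 14.8% to 15.3%) and AKR7A2 (11.4% to 12.5% against 15.9% to 16.9%) were lower with HC278, although their own levels overlapped.

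The rest of the superfamily was mostly at low levels. Of 8 further genes 5 were tested, 1 rose and 0 fell, beside 5.40% and 5.38% of all tested genes. KCNAB2, a beta subunit of voltage-gated potassium channels with an aldo-keto reductase fold, rose to 94.97, 92.6 and 89.9 CPM with HC278, against 49.0, 48.9 and 50.3 CPM with DMSO (log2 0.90, SE 0.095, adjusted p = 0.00623). The groups did not overlap. NPHP4 on the opposite strand overlaps KCNAB2 with 19.4% of its counts. KCNAB3 (log2 -0.49, adjusted p = 0.252), AKR1D1 (log2 -0.19, adjusted p = 0.802), AKR7A3 (log2 0.21, adjusted p = 0.806) and AKR7L (log2 -0.11, adjusted p = 0.889) did not pass. AKR1C4, the liver enzyme of the same cluster, had 0 counts with HC278 and 1 with DMSO. AKR1E2 (3 and 6 counts) and KCNAB1 (2 and 1) were also too low to be tested.

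**Figure D3:**
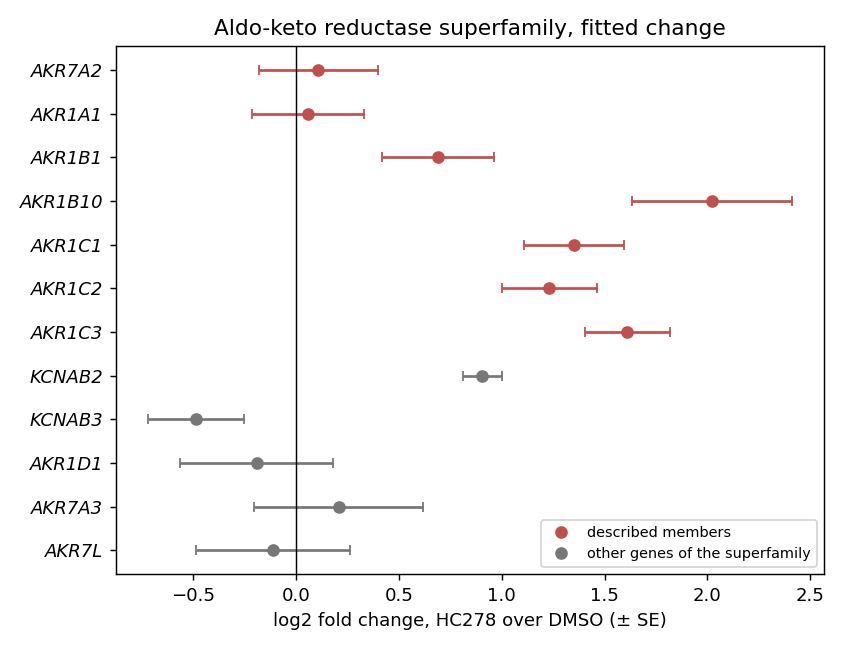
Fitted log2 fold change of HC278 over DMSO with its standard error for the 7 tested members (red) and the 5 other tested genes of the superfamily (grey). AKR1B10 and the AKR1C genes lie above 1, KCNAB2 at 0.90 with the shortest bar, and AKR1A1 and AKR7A2 near 0.

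NRF2 targets outside the family were mostly on the higher side, but few passed. Of 36 listed genes 30 were tested, 4 rose and 0 fell, beside 5.40% and 5.38% of all tested genes. The median log2 fold change was 0.50, beside 0.05 over all tested genes. In all 24 of the 30 had a positive value, beside 54.6% of all tested genes. ABCC3, a drug and conjugate exporter, rose to 16.4, 19.0 and 16.9 CPM with HC278, against 3.79, 3.17 and 4.28 CPM with DMSO (log2 2.22, SE 0.16, adjusted p = 0.00393). TRIM16L (log2 0.69, adjusted p = 0.0405) and PTGR1 (log2 0.72, adjusted p = 0.0405) rose less.

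The most used NRF2 reporters did not pass. NQO1 had 1559, 1377 and 909 CPM with HC278 and 943, 894 and 792 CPM with DMSO (log2 0.55, adjusted p = 0.183), so HC278 replicate 6 lay among the DMSO libraries. HMOX1, heme oxygenase, had 182, 187 and 108 CPM with HC278 and 102, 103 and 85.9 CPM with DMSO (log2 0.71, adjusted p = 0.110). Its groups did not overlap. The glutathione synthesis genes GCLM (log2 -0.28, adjusted p = 0.501) and GCLC (log2 -0.06, adjusted p = 0.900), the cystine carrier SLC7A11 (log2 -0.12, adjusted p = 0.864), the thioredoxin reductase TXNRD1 (log2 -0.16, adjusted p = 0.774), SRXN1 (log2 -0.21, adjusted p = 0.252) and ABCB6 (log2 -0.14, adjusted p = 0.532) were the 6 tested targets with negative values. When HC278 replicate 6 was left out, 20 of the 30 were higher and 3 lower, beside 19.8% and 20.7% of all tested genes, and 20 and 4 without DMSO replicate 3 as well. Leaving out any other single library left 1 higher, or 0 without DMSO replicate 2. Those fits called only 0.0% to 2.52% of all tested genes higher.

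**Figure D4:**
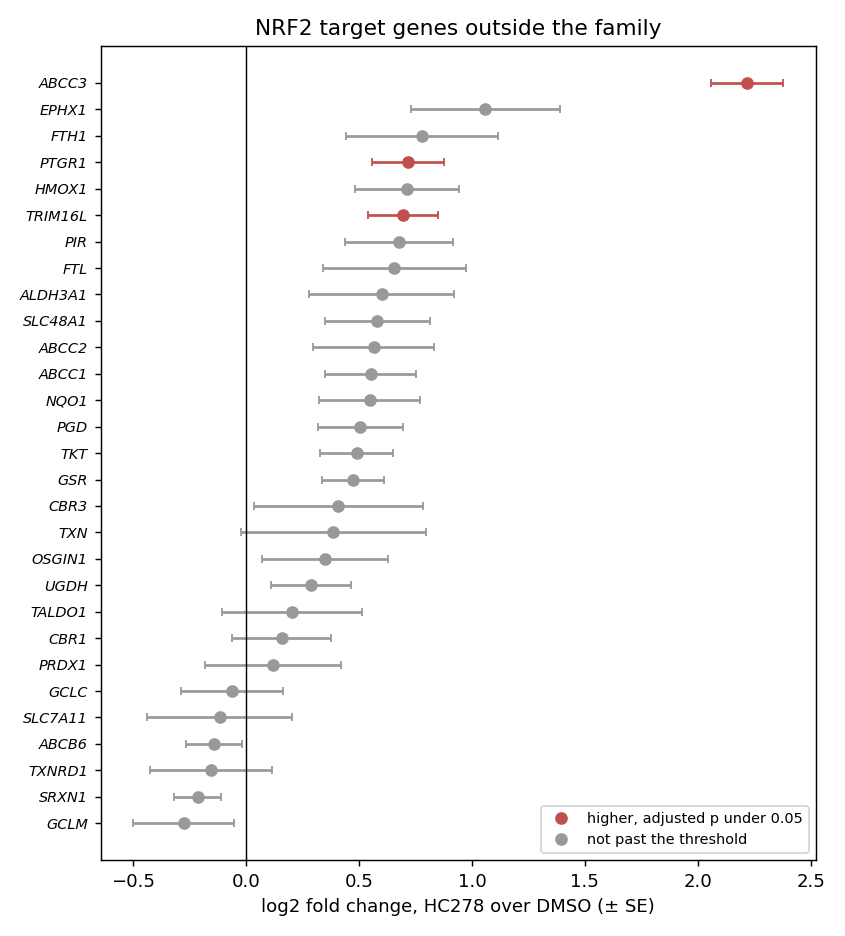
Fitted log2 fold change of HC278 over DMSO with its standard error for 29 of the 30 tested NRF2 targets outside the family, in order of size. ABCC3, PTGR1 and TRIM16L, which passed, are red, and 6 genes, among them GCLM and GCLC, lie below 0.

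Of 12 regulators of this pathway, 1 rose and 0 fell with all libraries, beside 5.40% and 5.38% of all tested genes. Without HC278 replicate 6, 4 rose and 4 fell, beside 19.8% and 20.7% of all tested genes. NFE2L2 transcripts had 104, 130 and 192 CPM with HC278 and 152, 153 and 170 CPM with DMSO (log2 -0.16, adjusted p = 0.734). KEAP1, which targets NRF2 for destruction, was at 0.16 (adjusted p = 0.520). The gene that rose was NFE2, a relative of NRF2 known from blood cells, with 3.58, 2.73 and 2.95 CPM against 0.501, 0.332 and 0.414 CPM (log2 2.88, adjusted p = 0.00416).

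Of 23 tested carbonyl-reducing and aldehyde-oxidising enzymes 2 rose and 1 fell, close to the background of 5.40% of all tested genes higher and 5.38% lower. The aldehyde dehydrogenase ALDH3B1 rose to 172, 170 and 154 CPM with HC278, against 67.5, 70.2 and 63.8 CPM with DMSO (log2 1.30, adjusted p = 0.00393). ALDH3A2, which oxidises fatty aldehydes, rose (log2 0.70, adjusted p = 0.0326), and mitochondrial ALDH1B1 fell to 13.6 ± 1.44 CPM with HC278, against 26.1 ± 0.528 CPM with DMSO (log2 -0.94, adjusted p = 0.00912). In the list for the polyol and fructose pathway, which also holds hexokinases, 0 of 5 tested genes rose. The hexokinase HK2 fell (log2 -0.97, adjusted p = 0.0148). SORD, which oxidises the sorbitol that AKR1B1 makes, did not pass (log2 -0.29, adjusted p = 0.137), with 38.3, 41.8 and 36.2 CPM in HC278 libraries and 47.7, 46.4 and 48.5 CPM in DMSO libraries. Without HC278 replicate 6, 7 rose and 4 fell among the 23 enzymes, and 2 rose and 2 fell among the 5, in the fit that called 19.8% of all tested genes higher and 20.7% lower.

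AKR1C3 and AKR1B1 can both make prostaglandin F. Of 14 tested genes of prostaglandin metabolism 5 rose and 0 fell, beside 5.40% and 5.38% of all tested genes. PTGES, which makes prostaglandin E, had 14.0, 13.3 and 13.2 CPM with HC278 and 1.41, 1.18 and 1.39 CPM with DMSO (log2 3.34, adjusted p = 0.00393). PTGIS, the prostacyclin synthase, rose by 2.21 on the log2 scale, and PTGS1, PTGDS and PTGR1 rose too. PTGS1 and PTGDS stayed below 1 CPM in all libraries, with 15 and 4 counts in the DMSO group. Both passed the filter on low counts only through the HC278 libraries. Only a rise could thus be called for them, and their part in the 5 is no support. Without HC278 replicate 6, 6 of the 14 rose and 2 fell, beside 19.8% and 20.7% of all tested genes. PTGS2, the inducible cyclooxygenase, was too low to be tested, with 5 counts with HC278 and 4 with DMSO. The receptor of prostaglandin F, PTGFR, had 1.33, 1.81 and 3.16 CPM with HC278 and 3.79, 4.35 and 5.52 CPM with DMSO (log2 -1.11, adjusted p = 0.100).

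Of the 16 tested genes of steroid metabolism and steroid receptors, HSD3B7 of bile acid synthesis rose (log2 1.01, adjusted p = 0.0445) and 0 fell. The progesterone receptor PGR, whose ligand AKR1C1 inactivates, was too low to be tested, with 7 counts in each group. Of 14 tested genes of retinoid metabolism, DHRS3, which like AKR1B10 reduces retinaldehyde, rose to 539, 439 and 275 CPM with HC278, against 173, 162 and 127 CPM with DMSO (log2 1.44, adjusted p = 0.0257), and 0 fell. ALDH1A3, which oxidises retinaldehyde, did not pass (log2 1.81, adjusted p = 0.0530), with 279, 389 and 892 CPM in HC278 libraries and 130, 137 and 177 CPM in DMSO libraries. With all libraries, the 1 rise in each list lay near the 5.40% share of all tested genes called higher. Without HC278 replicate 6 the steroid list had 5 rises and 1 fall among 17 tested genes. The retinoid list then had 6 rises and 1 fall among 14. That fit called 19.8% of all tested genes higher and 20.7% lower.

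**Figure D5:**
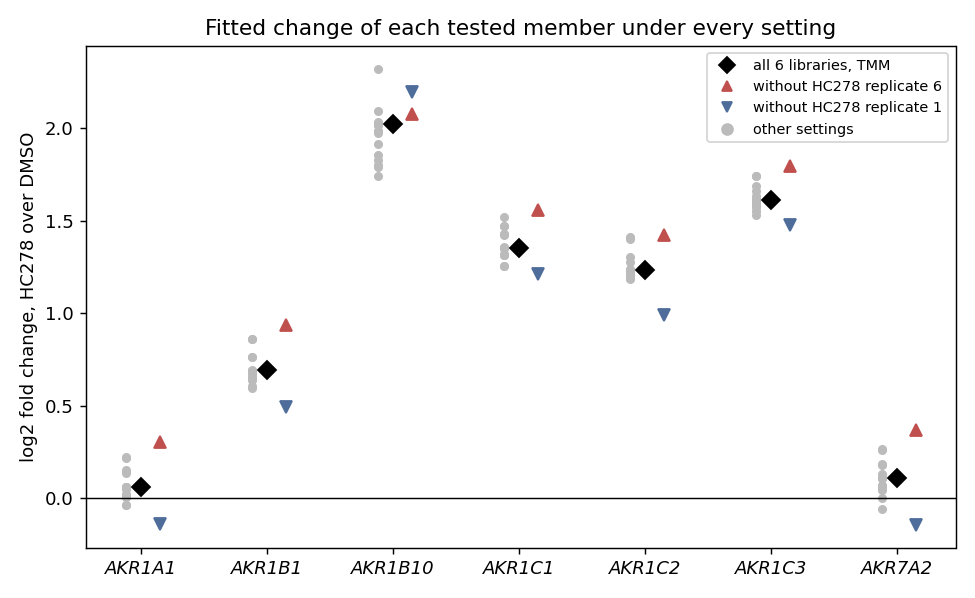
Log2 fold change of HC278 over DMSO for the 7 tested members with all libraries (black), without HC278 replicate 6 (red), without HC278 replicate 1 (blue) and under the other settings (grey). AKR1B10, AKR1C1, AKR1C2 and AKR1C3 stay above 0.99 throughout, AKR1B1 between 0.49 and 0.93, and AKR1A1 and AKR7A2 on either side of 0.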

How the data were processed

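Expression was deposited by the authors as 1 table. Per the file headers it holds the raw read count per gene, TPM, RPKM and a CPM signal for each library; the TPM columns sum to 1000000, and the deposited CPM signal does not sum to that total, so it and the RPKM values were not used. The submitters' processing notes name hg38; per the labels' protocols the kit is stranded. For aligner, counter and strand setting, the sources used here give nothing. Tests on the counts used edgeR 4.0.16 (R 4.3.3; glmQLFit, glmQLFTest, TMM, filterByExpr with a minimum of 10), leaving 15510 genes, with Benjamini-Hochberg adjustment over them and a threshold of 0.05; the test was checked on simulated data. SE is the fold change over the square root of F. Printed CPM uses the TMM-scaled library size. In a library 3 counts are 0.0904 to 0.0984 CPM. Alternatives used DESeq2 1.42.0 and limma 3.58.1, and a loess length trend with GENCODE release 29 exon lengths. Alignments were made with Biopython 1.88 and figures with matplotlib 3.10.9.

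The members and gene lists were chosen with earlier results of these data known. Named are all members, other superfamily genes, up to 4 called genes with the smallest adjusted p of each list, set pathway partners, the 2 genes with the closest profile to each called member, and chromosome neighbours; PTGFR, ALDH1A3, the 6 NRF2 targets below 0 and the markers were named after their values were seen. PTGR1, ALDH1A3 and some genes not named here are in more than 1 list, so the counts of the lists are not independent. No sample was left out. Some genes of the lists entered the counts and sums but are not reported here by name.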

Additional observations from a re-analysis of the deposited data

How the results depend on the processing

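The log2 fold changes of AKR1B10 (1.74 to 2.32), AKR1C1 (1.21 to 1.56), AKR1C2 (0.99 to 1.42), AKR1C3 (1.48 to 1.80) and AKR1B1 (0.49 to 0.93) kept their sign under every alternative run, while AKR1A1 (-0.14 to 0.31) and AKR7A2 (-0.14 to 0.37) did not. With all libraries, 1672 genes, 4 members and 4 NRF2 targets were called, the members and targets as higher. DESeq2 called 2818 genes and 8 NRF2 targets, and with the length trend taken out, on 15385 genes with a length, 2650 and 8 were called. Without a filter 2 NRF2 targets were called. With near-identical copies summed, 2 values were called higher among members, the AKR1C sum and the AKR1B10 and AKR1B15 sum. Leaving out 1 library gave 0 to 6413 genes, 0 to 5 members and 0 to 20 NRF2 targets. Without DMSO replicate 2, where edgeR called 0 genes, 2864 genes passed p 0.05 before adjustment; no other tool was run on those libraries. Leaving out DMSO replicate 3 and HC278 replicate 6 together gave 6322 genes, 5 members and 20 NRF2 targets. The cause was not tested. Replicate numbers 1 and 2 occur in both groups, and the deviations of same-numbered libraries correlated at 0.52 and 0.18 across genes, but with 2 shared numbers this does not show a pairing. With the replicate number as a block, 8172 genes, 7 members and 23 NRF2 targets were called, a fit in which HC278 replicate 6 and DMSO replicate 3 carry no weight in the contrast. Counts of the other lists without HC278 replicate 6, without both libraries or with the length trend were added after seeing the data. Depth limits AKR1B15, AKR1C4, AKR1E2 and KCNAB1.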

Other observations

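Genes with a profile like that of a called member were sought among those averaging 5 CPM or more, a limit that AKR1B10 itself did not reach. Those whose centred log2 CPM profile over the 6 libraries was closest to a member were found by the root mean square difference, as a description. Closest to AKR1C1 were HPCAL1, a neuronal calcium sensor relative (difference 0.044), with 297, 274 and 178 CPM with HC278 and 103, 98.6 and 88.0 CPM with DMSO, and LRRC61 (0.055), which ZBED6CL overlaps on the same strand with 36.4% of its counts. Closest to AKR1C3 were DDIT4, an inhibitor of mTORC1 (0.076), with 141, 141 and 96.6 CPM against 49.99, 44.9 and 40.6 CPM, and the lens filament gene BFSP1 (0.080). TP53TG1 (0.084) and STMN3 (0.096) were closest to AKR1C2. For AKR1B10, whose counts are low, the closest were SPON2 (0.25) and P2RX6 (0.31).

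The tested genes that flank the members on the chromosome had log2 fold changes of both signs. On chromosome 10 the long noncoding gene MANCR, 285068 bases before AKR1C1, fell (log2 -0.55, adjusted p = 0.0328). AL355303.2, 107722 bases after AKR1C3 and opposite to AKR1C4, rose from a low level (0.534 CPM with HC278 and 0.181 CPM with DMSO, log2 1.53, adjusted p = 0.0288). Its DMSO level alone would not have passed the filter on low counts. Only a rise could thus be called for AL355303.2, and its call is no support. BPGM after the AKR1B genes (log2 -0.11, adjusted p = 0.637) and AC009275.1 before them (log2 0.76, adjusted p = 0.399) did not pass. Beside AKR1A1, NASP fell (log2 -0.61, adjusted p = 0.0427) and PRDX1 did not pass (log2 0.12, adjusted p = 0.851). SLC66A1, 180 bases from AKR7A2, did not pass (log2 0.13, adjusted p = 0.767).

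Of 15 aldo-keto reductase pseudogene rows, 7 had no count in any library. AKR1C7P, also on chromosome 10, had 4, 5 and 24 counts in HC278 replicates 1, 2 and 6, against 3, 8 and 8 counts with DMSO, and AKR1C8P had 2, 2 and 4 counts against 10, 5 and 3.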
